A study of Mus musculus with 21 samples.

Results

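The 39 Hox genes of the mouse, in the 4 clusters HoxA, HoxB, HoxC and HoxD, were described in colon stromal cells. Members were all genes whose symbol is Hox, a cluster letter from a to d and a number. They were 39 symbols on 40 rows of the 31053 genes in the single-cell matrix, because Hoxd4 has a pair of identifiers (ENSMUSG00000101174 and ENSMUSG00000115956), whose counts were summed. For open chromatin, members were the peaks inside the 4 clusters, from the first to the last base of their Hox genes. All 21 samples of the study came from C57BL/6 mice and formed 9 groups. In 8 ATAC-seq samples open chromatin of sorted colon stromal cells was mapped in 4 populations with 2 libraries each, from males of 12 weeks, with no treatment given in the labels. They were Myofibroblast, CD138 (labelled CD34-CD138+), CD34 SP (cells single positive for CD34) and MRISC, the stromal cells that the study calls MAP3K2-regulated. The sort took cells that carried gp38 and lacked CD45, Epcam and CD31, and then used subset antibodies; no source used here names those that pick out MRISC. One single-cell sample held gp38+CD90+ cells of the colon lamina propria from a wild-type female of 12 weeks given 2% dextran sulfate sodium (DSS), an agent that injures the colon epithelium, at D3. The other 12 samples, bulk RNA of wild-type and Map3k2-/- colon at 16 weeks after water or DSS, were not analysed here. No label gives the number of mice behind a library or the position along the colon from which the cells came.

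Hox genes encode homeodomain transcription factors that give cells their position along the body axis. Within a cluster the genes lie in the order in which they are used from head to tail, so that anterior genes sit at the 3′ end and posterior genes at the 5′ end, and genes of the same number in different clusters are paralogs. Fibroblasts of the adult body keep a Hox pattern that reflects where they arose, and in the hindgut mesenchyme the posterior genes of HoxA and HoxD are known for shaping the large intestine and its end. Polycomb proteins keep unused Hox genes closed, and proteins of the TALE class, such as PBX and MEIS, bind DNA together with HOX proteins.

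On the mm10 build HoxA lies at chr6:52155590-52260880 on the minus strand with 11 genes over 105.3 kb. HoxB lies at chr11:96194316-96368256 on the plus strand with 10 genes over 173.9 kb. HoxC lies at chr15:102921103-103036852 on the plus strand with 9 genes over 115.8 kb, and HoxD at chr2:74668310-74765142 on the plus strand with 9 genes over 96.8 kb. Promoter sequence from 250 bases before to 50 bases after the start was at hand for 22 of the 39 genes (RefSeq, GRCm38.p6, the assembly of mm10). The promoters of 3 genes on which the results turn are shown 5′ to 3′ on the gene's own strand, with every CpG in capitals. They belong to Hoxa10, the most abundant Hox gene of these cells, and to Hoxd13 and Hoxd9, a pair of HoxD genes that were high in different stromal cell clusters.
Hoxa10, chr6:52240805-52241104, minus strand: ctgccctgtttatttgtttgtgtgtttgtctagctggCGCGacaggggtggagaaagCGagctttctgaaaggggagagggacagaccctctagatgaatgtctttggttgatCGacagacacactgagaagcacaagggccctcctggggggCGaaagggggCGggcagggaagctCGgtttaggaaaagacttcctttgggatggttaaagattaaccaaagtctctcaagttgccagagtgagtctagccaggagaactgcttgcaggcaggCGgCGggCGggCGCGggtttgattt
Hoxd13, chr2:74667975-74668274, plus strand: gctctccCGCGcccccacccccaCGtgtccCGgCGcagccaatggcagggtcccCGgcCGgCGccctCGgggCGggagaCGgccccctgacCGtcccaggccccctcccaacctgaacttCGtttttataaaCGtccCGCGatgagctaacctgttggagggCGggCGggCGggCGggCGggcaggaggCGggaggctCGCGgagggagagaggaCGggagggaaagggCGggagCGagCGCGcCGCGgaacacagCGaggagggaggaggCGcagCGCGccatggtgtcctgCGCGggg
Hoxd9, chr2:74697513-74697812, plus strand: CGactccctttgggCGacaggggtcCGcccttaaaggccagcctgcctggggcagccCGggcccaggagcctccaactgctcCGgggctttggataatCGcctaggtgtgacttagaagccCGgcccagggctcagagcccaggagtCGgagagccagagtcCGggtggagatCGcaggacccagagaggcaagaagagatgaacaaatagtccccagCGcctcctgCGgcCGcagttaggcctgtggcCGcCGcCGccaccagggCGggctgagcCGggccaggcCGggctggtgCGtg
The Hoxd13 window held 37 CpG and 74.3% GC, and a peak lay on these bases in all 4 populations. The Hoxa10 window held 12 CpG and the Hoxd9 window 20 CpG, and in both a peak lay on these bases in MRISC, CD34 SP and CD138 and not in Myofibroblast. Hoxa10 has a further start, and on its window (chr6:52234890-52235189) a peak lay in all 4 populations. Over the 22 genes the median GC content of the promoters was 57.7% (39.7 to 81.0%), against 52.7% over the promoters of 27025 genes. Their median CpG content, observed over expected from the base composition, was 0.626 against 0.384.

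The single-cell library held 11376 cells after filters, with a median of 6052 unique molecular identifiers (UMIs, each counting 1 captured transcript end). Clustering without the Hox genes and their antisense genes gave 12 cell clusters, of which 9 with 11069 cells were stromal and 7 of these held at least 500 cells. Named clusters were lamina propria fibroblast-like (2040 cells), CD34+CD81+ fibroblast-like (1353 cells), myofibroblast or smooth muscle-like (1115 cells), mesothelium-like (89 cells) and crypt-top fibroblast-like (79 cells). The other 4 stromal clusters are called by leading genes, as Cxcl13 Mgp (2208 cells), Saa3 Prdm1 (1949 cells), Hapln1 Edil3 (1639 cells) and Cxcl14 Ddit4 (597 cells). Transcripts of the sort markers were present in all 9, with Pdpn (gp38) at 110.1 to 392.8 and Thy1 (CD90) at 35.7 to 191.6 CPM (UMIs of a gene scaled to the total UMIs of the cells). Ptprc (CD45) reached at most 0.0879 CPM there. Free RNA was estimated at 12.25% of stromal UMIs (4.78 to 44.4% over 8 immune and epithelial genes). Many of the Hox levels below are set beside the CPM that this share would give. The estimate is rough, and for HoxC it was too high in 2 clusters. It would give 2.52 CPM of HoxC, against 0.967 (0.483 to 1.73) in Cxcl13 Mgp and 1.20 (0.641 to 2.06) in Hapln1 Edil3 cells. With 1 library there is no spread between animals, so 95% intervals cover counting error only, and no test between clusters was made.

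The stromal cells carried a posterior Hox pattern led by HoxA and HoxD. Of the 39 genes, 37 had a UMI in stromal cells, against 62.0% of all genes in the matrix, and Hoxc13 and Hoxd1 had none. There were 8 of the 39 at 10 CPM or more, a somewhat smaller share than the 26.4% of all genes. The 22609 Hox UMIs made up 321.1 CPM (316.9 to 325.3). Posterior genes (numbers 9 to 13) gave 82.0% of them (81.5 to 82.5), central genes (4 to 8) gave 14.98% and anterior genes (1 to 3) 3.02%. HoxA gave 61.2% (60.5 to 61.8) and HoxD 27.4%, while HoxC and HoxB gave 5.96% and 5.45%. At least 1 Hox UMI was seen in 77.7% of stromal cells at a median of 6050 UMIs.

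Hoxa10 alone made up 32.0% of the stromal Hox UMIs, at 102.9 CPM (100.5 to 105.3) against 12.3 CPM from free RNA. Its neighbours Hoxa11 and Hoxa9 had 40.4 and 18.8 CPM, so Hoxa9 to Hoxa11 held 50.5% of all Hox UMIs. In HoxD the highest levels were those of Hoxd11 (32.9 CPM), Hoxd10 (20.7 CPM) and Hoxd9 (17.0 CPM). The central genes Hoxa7 and Hoxd8 had 16.9 and 9.49 CPM. Of the group 13 genes, which mark the tail end of the axis, Hoxa13 had 10.3 CPM, Hoxd13 7.57 CPM, Hoxb13 0.170 CPM (12 UMIs) and Hoxc13 0. The highest members of the other clusters were Hoxc10 (6.45 CPM), Hoxb4 (5.74 CPM), Hoxc9 (4.76 CPM) and Hoxb2 (4.74 CPM). Only the end of a transcript is counted here, so these levels were not divided by gene length, and capture can differ between genes. Exons of Hoxc5 and Hoxc10, and of Hoxd3 and Hoxd4, share bases on the same strand. The low values of Hoxc5 (0.185 CPM), Hoxd3 (0.0994 CPM) and Hoxd4 (0.199 CPM) are therefore uncertain, and the level of Hoxc10 carries the same limit. Exons of Hoxd10 and Hoxd11 share bases with Gm28309, those of Hoxa2 and Hoxa3 with Gm28308, and those of Hoxa9 with Mir196b. The effect on their counts was not tested. No source used here says whether counting was by strand.

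**Figure D1:**
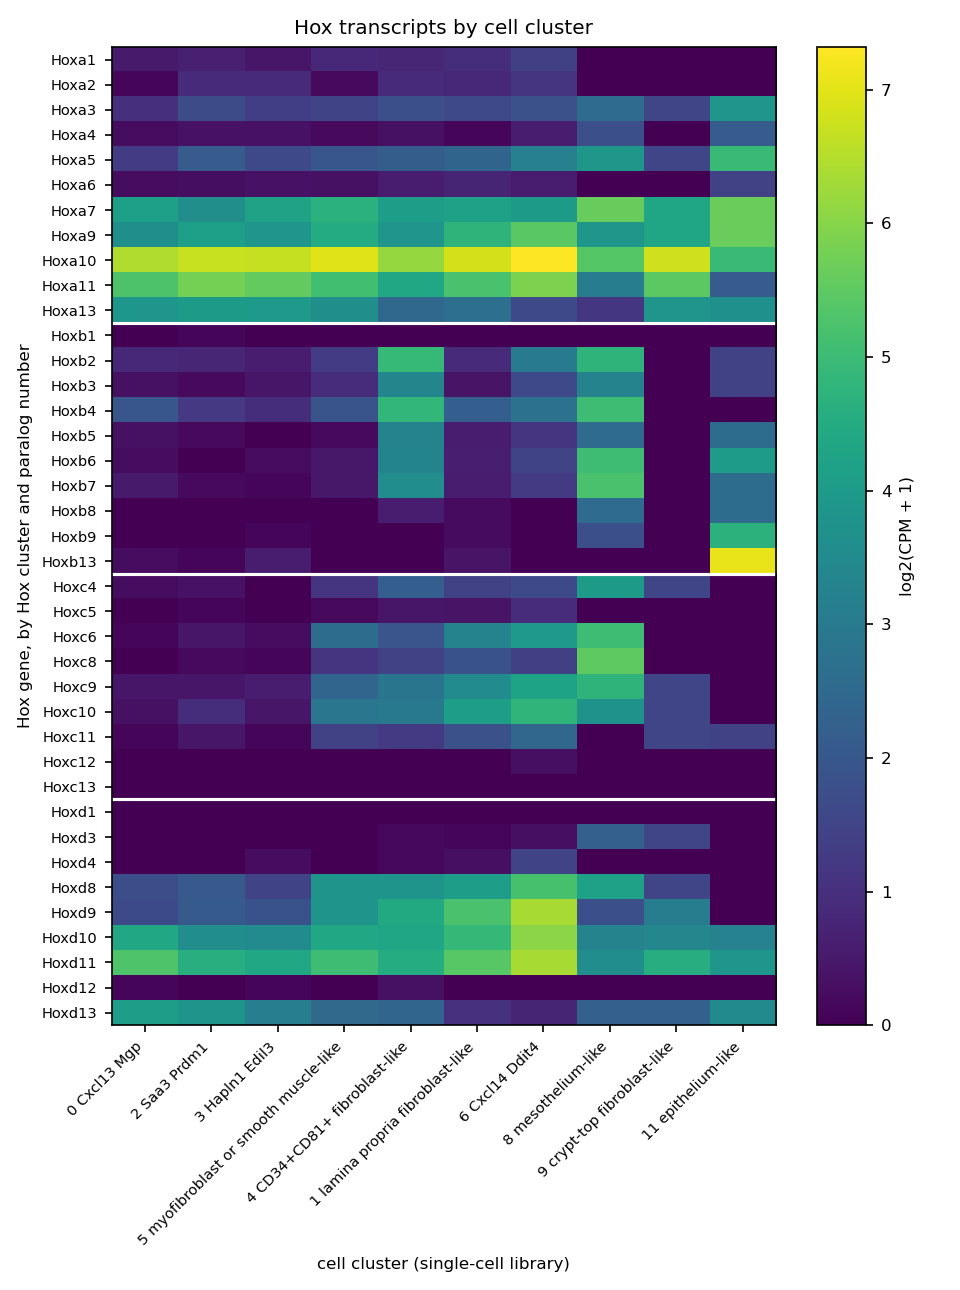
Pooled level of each of the 39 Hox genes (rows, ordered by cluster and number) in 9 stromal cell clusters and in epithelium-like cells (columns), with colour on a log2(CPM + 1) scale. Brighter colours are higher levels. Hoxa9 to Hoxa11, Hoxd10 and Hoxd11 are bright across the large stromal clusters, HoxB genes mainly in the CD34+CD81+ fibroblast-like and mesothelium-like columns, and Hoxb13 in the epithelium-like column.

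Hoxa10, which patterns the posterior trunk and the reproductive tract, was present in every large stromal cluster. Its level was 86.0 CPM in Cxcl13 Mgp, 113.3 in lamina propria fibroblast-like, 102.6 in Saa3 Prdm1 and 100.6 in Hapln1 Edil3 cells. It was 70.2 CPM in CD34+CD81+ fibroblast-like, 123.5 in myofibroblast or smooth muscle-like and 158.9 in Cxcl14 Ddit4 cells. The highest was 2.27 times the lowest, and only in Cxcl14 Ddit4 cells (147.3 to 171.3) did the interval lie above those of all the other large clusters. Mesothelium-like cells had 40.9 CPM (28.1 to 57.4). Hoxa7, Hoxa9 and Hoxa11 also ranged less than 4-fold over the large clusters, by 2.19, 3.74 and 2.96 times.

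Other Hox genes differed far more between clusters. Among genes at 10 CPM or more in at least 1 large stromal cluster, 12 of 16 Hox genes had a range over 4-fold, against 13.8% of the 9396 genes that passed the same filter, and their median range was 21.1-fold against 1.67-fold (a lowest value under 3 counts was set to 3). The filter takes the highest cluster, so a gene that is low on the whole enters only where it is high, and these figures describe the 16 genes that passed. Where the lowest cluster of a gene is at the level of free RNA, its range depends on that background. The 12 were Hoxa13, Hoxb2, Hoxb4, Hoxb7, Hoxc6, Hoxc9, Hoxc10, Hoxd8, Hoxd9, Hoxd10, Hoxd11 and Hoxd13. Hoxd11 was nearest to the limit, at 4.06-fold, and of the other 4 genes Hoxa9 was nearest.

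Hoxd13, the most posterior gene of HoxD, and Hoxa13 were highest in the same 3 clusters. Hoxd13 had 15.8 CPM (13.6 to 18.3) in Cxcl13 Mgp, 12.7 in Saa3 Prdm1 and 7.78 in Hapln1 Edil3 cells. It had 4.74 CPM in myofibroblast or smooth muscle-like and 4.29 in CD34+CD81+ fibroblast-like cells, and 1.08 CPM (14 UMIs) in lamina propria fibroblast-like cells. In Cxcl14 Ddit4 cells 3 UMIs were counted, 0.690 CPM (0.142 to 2.02), a value that does not stand apart from the 0.991 CPM of free RNA. Hoxa13 had 13.4, 15.02 and 14.4 CPM in the Cxcl13 Mgp, Saa3 Prdm1 and Hapln1 Edil3 clusters, 11.5 in myofibroblast or smooth muscle-like cells, and 5.33, 4.53 and 2.07 CPM in the lamina propria fibroblast-like, CD34+CD81+ fibroblast-like and Cxcl14 Ddit4 clusters. Unlike Hoxd13, Hoxa13 stood above free RNA (1.25 CPM) in lamina propria fibroblast-like cells, with an interval from 4.15 to 6.74 CPM.

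Hoxd9 and Hoxd8, which lie further toward the anterior end of the same cluster, ran the other way. Hoxd9 had 81.7 CPM (73.4 to 90.6) in Cxcl14 Ddit4, 36.4 (33.2 to 39.8) in lamina propria fibroblast-like, 20.9 in CD34+CD81+ fibroblast-like and 12.8 in myofibroblast or smooth muscle-like cells. It had 2.11, 3.18 and 2.59 CPM in the Cxcl13 Mgp, Saa3 Prdm1 and Hapln1 Edil3 clusters, where free RNA would give 2.07 CPM. So the 3 clusters highest in Hoxd13 had Hoxd9 near the free RNA level, and the 2 clusters highest in Hoxd9 had the lowest Hoxd13. Hoxd8 ranged from 35.7 CPM in Cxcl14 Ddit4 to 1.85 CPM in Hapln1 Edil3 cells, with 15.8 CPM in lamina propria fibroblast-like cells. Hoxd10 and Hoxd11, which lie between Hoxd9 and Hoxd13, were also highest in Cxcl14 Ddit4 cells (65.6 and 80.7 CPM) but stayed at 10.6 and 19.9 CPM or more in every large stromal cluster.

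HoxC genes followed Hoxd8 and Hoxd9 rather than group 13. Hoxc10, a posterior gene, had 26.5 CPM (21.8 to 31.8) in Cxcl14 Ddit4 and 15.8 in lamina propria fibroblast-like cells. It had 6.74 CPM in CD34+CD81+ fibroblast-like and 6.32 in myofibroblast or smooth muscle-like cells. In Cxcl13 Mgp, Hapln1 Edil3 and Saa3 Prdm1 cells it had 3, 4 and 13 UMIs, or 0.264, 0.370 and 0.939 CPM, which do not exceed free RNA (0.935 CPM) beyond counting error. Over the whole of HoxC, Cxcl14 Ddit4 cells had 68.3 CPM (60.8 to 76.6) and Cxcl13 Mgp cells 0.967 CPM (0.483 to 1.73), which is below the 2.52 CPM that free RNA would give. Mesothelium-like cells had more HoxC than any large cluster, at 130.0 CPM (106.3 to 157.4), led by Hoxc8 (44.6 CPM) and Hoxc6 (32.2 CPM).

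The HoxB genes other than Hoxb13 were concentrated in CD34+CD81+ fibroblast-like and mesothelium-like cells. Their sum was 94.8 CPM (88.2 to 101.7) in the first and 147.3 CPM (122.0 to 176.3) in the second, against 19.3 in Cxcl14 Ddit4 cells and 2.13 to 6.49 CPM in the other 5 large clusters. Free RNA would give 3.17 CPM. Hoxb2, an anterior gene known from the hindbrain, had 28.9 CPM (25.3 to 32.8) in CD34+CD81+ fibroblast-like cells, 7.13 in Cxcl14 Ddit4 cells and 0.463 to 1.45 CPM in the other large clusters. Hoxb4 had 27.6 CPM (24.1 to 31.4) there, 5.75 in Cxcl14 Ddit4 cells and 0.926 to 3.553 CPM elsewhere among the large clusters. Hoxb3, Hoxb5, Hoxb6 and Hoxb7 had their highest level among the large clusters in the same cells, at 9.31, 8.70, 8.82 and 11.02 CPM. Hoxb8 and Hoxb9 had 10 and 5 UMIs in all stromal cells and Hoxb1 had 1.

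The same HoxB genes marked mesothelium-like cells, where Hoxb7 had 35.9, Hoxb6 and Hoxb4 32.2 each, and Hoxb2 26.0 CPM. These cells were the one stromal cluster in which central genes (283.5 CPM) exceeded posterior genes (130.0 CPM). Hoxa7 was their most abundant Hox gene, at 48.3 CPM (39 UMIs). Wt1, a transcription factor of the serosal lining and one of the markers that named the mesothelium-like cluster, had 416.0 CPM in these cells and 84.0 CPM in CD34+CD81+ fibroblast-like cells. Gata6, a zinc finger factor of gut mesenchyme, had 100.3 and 15.9 CPM in the same order.

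**Figure D2:**
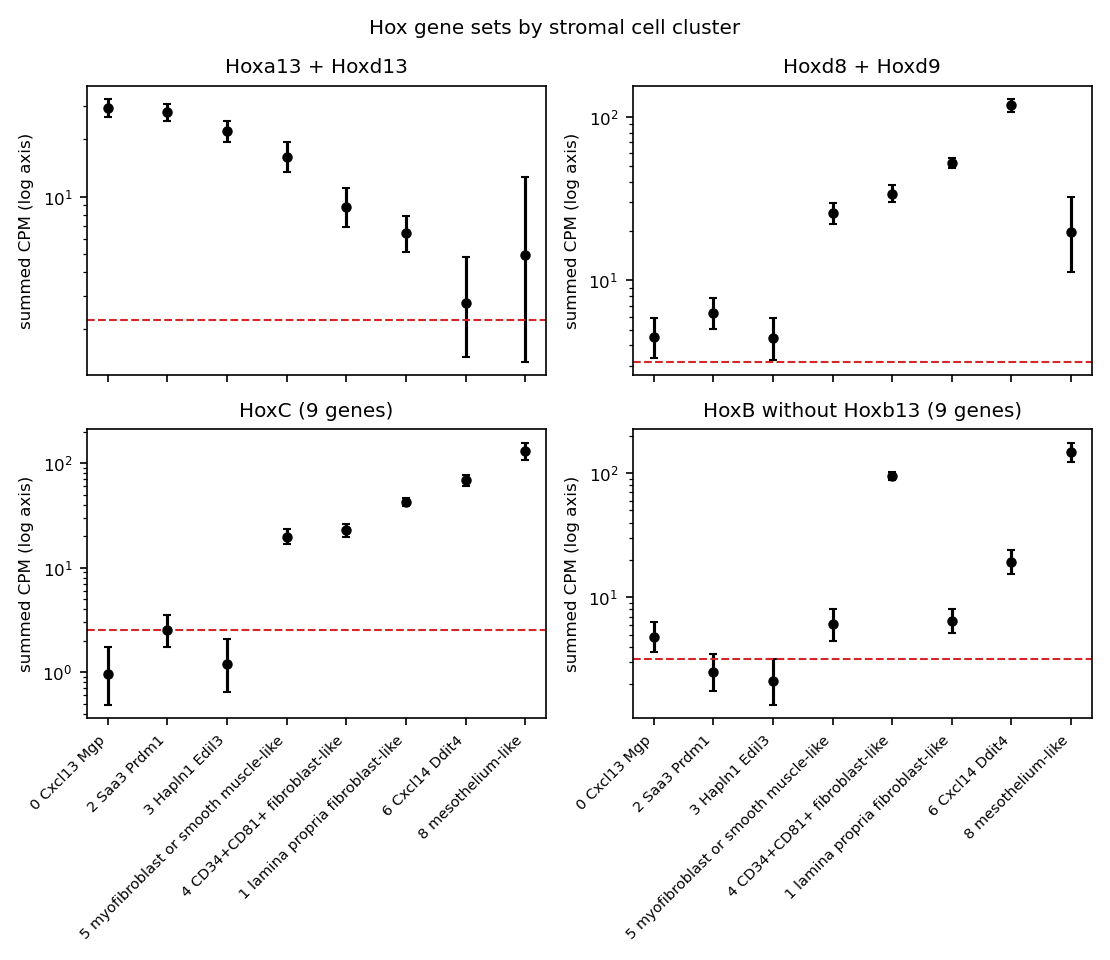
Summed level in CPM (log axis) of 4 Hox gene sets, Hoxa13 with Hoxd13, Hoxd8 with Hoxd9, HoxC, and HoxB without Hoxb13, in 8 stromal cell clusters. Points are pooled values with exact Poisson 95% intervals for counting error, and the dashed line is the level expected from free RNA. Group 13 is at 22.1 to 29.3 CPM in the 3 clusters where Hoxd8 with Hoxd9 is at 4.45 to 6.28 CPM.

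The summed level of all Hox genes was then set side by side. It was 253.5 CPM in Cxcl13 Mgp, 265.4 in Saa3 Prdm1 and 244.5 in Hapln1 Edil3 cells. It was 379.8 CPM in lamina propria fibroblast-like, 328.5 in CD34+CD81+ fibroblast-like, 329.3 in myofibroblast or smooth muscle-like and 644.3 (620.7 to 668.6) in Cxcl14 Ddit4 cells. The highest over the lowest was 2.64 for all Hox genes and 2.87 for posterior genes. No such ratio is read for group 13, HoxC or HoxB without Hoxb13, because their lowest large clusters (2.76, 0.967 and 2.13 CPM) do not exceed free RNA (2.24, 2.52 and 3.17 CPM) beyond counting error. Hoxd8 with Hoxd9 ranged from 117.3 to 4.45 CPM, the lower value being close to the 3.17 CPM of free RNA. Median depth of the large clusters lay between 5122.5 UMIs (Cxcl13 Mgp) and 6966 UMIs (Cxcl14 Ddit4), and CPM divides by depth. The cluster with most Hox was the deepest and a cluster with little Hox the shallowest. Hapln1 Edil3 cells, the lowest in Hox, had a median of 6369 UMIs. Once each cell was thinned to 3000 UMIs, the ratios for all Hox and posterior genes were 2.73 and 2.92. With a coarser clustering the Cxcl14 Ddit4 cells joined an inflamed fibroblast-like cluster, and the ratios for all Hox and posterior genes fell to 1.502 and 1.76. With another seed at the same resolution no separate Cxcl14 Ddit4 cluster formed either, and these ratios were 1.63 and 1.85. The levels given for Cxcl14 Ddit4 cells, often the highest, therefore depend on the clustering run.

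A finer clustering divided the lamina propria fibroblast-like cluster into parts that differed in Hox genes, although no Hox gene took part in it. One of its clusters, of 1220 cells, had 61.7 CPM of HoxC, 73.3 of Hoxd8 with Hoxd9 and 4.999 of group 13. The cluster that kept the name lamina propria fibroblast-like, of 778 cells, had 3.49, 8.28 and 12.0 CPM of the same sets. CD34+CD81+ fibroblast-like cells split into clusters of 870 and 482 cells that both had high HoxB, at 86.3 and 106.6 CPM.

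Over all stromal cells, group 13 (here Hoxa13 or Hoxd13) was seldom seen in the same cell as Hoxd8, Hoxd9 or HoxC genes. After each cell was thinned to 3000 UMIs (722 shallower stromal cells left out), group 13 and HoxC were both seen in 6 of 10347 cells, where 25.0 would be met if they were independent, a ratio of 0.240 (0.0882 to 0.523). Group 13 and Hoxd8 or Hoxd9 were seen together in 10 cells against 36.3, a ratio of 0.275 (0.132 to 0.506). No cell had both Hoxd9 and Hoxd13, against 10.6, which puts the ratio at 0.3495 or less over all stromal cells. Before thinning 14 cells had both, against 40.8. HoxC and Hoxd8 or Hoxd9 were seen together in 123 cells against 34.7, a ratio of 3.54 (2.94 to 4.23). Hoxd10 or Hoxd11 met group 13 about as often as independence gives (ratio 1.05, 0.824 to 1.31) and HoxC more often (1.74, 1.45 to 2.08).

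Part of this followed the cell clusters. With the expected number summed within each cluster, the ratio of HoxC with Hoxd8 or Hoxd9 was 1.57 (1.30 to 1.87), still above 1. That of group 13 with HoxC was 0.568 (0.208 to 1.24) and that of group 13 with Hoxd8 or Hoxd9 was 0.563 (0.270 to 1.04), intervals that both include 1. Without thinning these latter ratios within clusters were 0.737 and 0.859. The excess of HoxC with Hoxd8 or Hoxd9 was uneven between clusters after thinning. Lamina propria fibroblast-like cells had 59 against 31.1 expected, CD34+CD81+ fibroblast-like cells 17 against 6.09 and myofibroblast or smooth muscle-like cells 7 against 2.86. Cxcl14 Ddit4 cells, the large cluster highest in both sets, had 34 against 35.8, a ratio of 0.949 (0.657 to 1.33). For Hoxd9 with Hoxd13 only 3.32 cells were expected within clusters after thinning, too few to read the 0, and without thinning the ratio within clusters was 0.868 (0.474 to 1.46). HoxB without Hoxb13 met HoxC 1.69 times as often as independence gives over all stromal cells and 0.990 times within clusters. Doublets were not removed, and each doublet adds to the pairs seen.

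**Figure D3:**
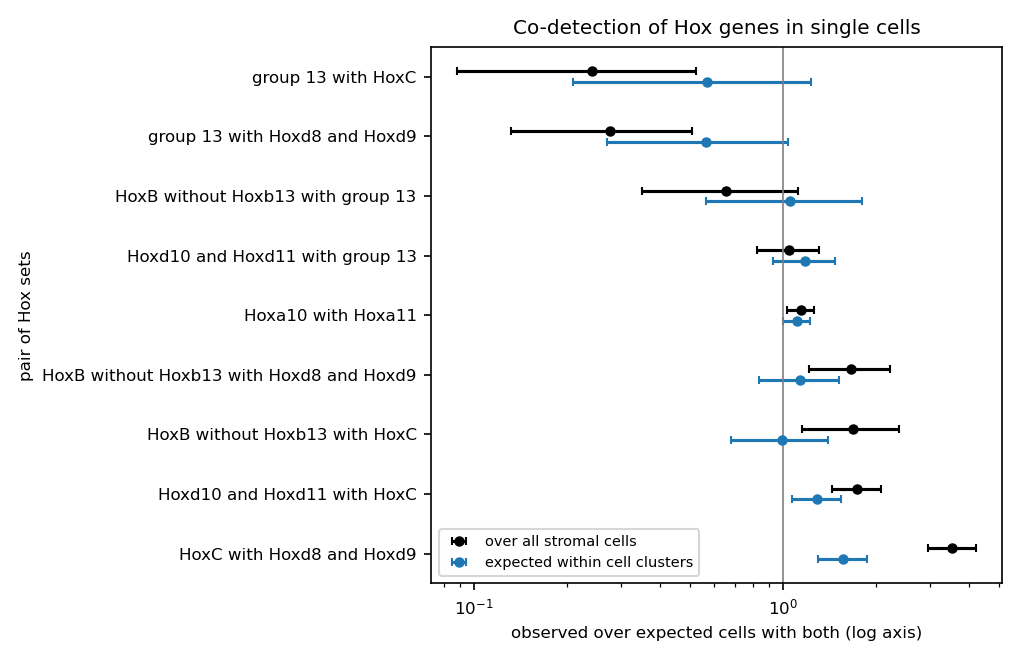
Number of stromal cells with both members of a pair over the number expected if they were independent (log axis), with exact 95% intervals, over all stromal cells (black) and within cell clusters (blue), after thinning. Pairs of group 13 with HoxC or with Hoxd8 and Hoxd9 lie under 1 over all cells, and HoxC with Hoxd8 and Hoxd9 lies above 1 in both settings.

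No cell cluster gave a Hox-free background. In the 24 epithelium-like cells (median 20290 UMIs) Hoxd9 and Hoxc10 had 0 UMIs, but the exact limit of 6.20 CPM for each lies above the level expected from free RNA, so these cells are too few to measure it. A cluster of 249 cells led by Igkc and Jchain had 237.2 CPM of Hox genes and 86.3 CPM of Hoxa10, close to the stromal level. That cluster also had 1556 CPM of Col1a1 and 1292 CPM of Tcf21, stromal genes, so it carried stromal transcripts, and 69.5% of its cells had a Hox UMI at a median of 5915 UMIs.

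The other genes of the pathway were counted from lists, beside 26.4% of all genes at 10 CPM or more and 13.8% of the genes that passed the filter with a range over 4-fold. As for the Hox genes, the filter lets a gene that is low on the whole in only through the cluster where it is high, so these counts are descriptions. A list of 24 genes was mostly of Polycomb and trithorax genes, which hold Hox genes closed or open. Of these 24, 18 had 10 CPM or more in stromal cells, and 0 of the 20 that passed the filter had a range over 4-fold. The highest were Ash1l (86.9 CPM), Kdm6b (60.7 CPM), Kmt2a (59.1 CPM) and Ctcf (50.9 CPM), the last being of neither class. Of 9 genes of TALE partners of HOX proteins, 8 had 10 CPM or more, among them Meis2 (86.8 CPM), and 1 of 8 had a range over 4-fold (Pbx3, 4.02-fold). Of the noncoding transcripts of the clusters, 8 were in the matrix and 1 had 10 CPM or more, Hotairm1 at the anterior end of HoxA (14.1 CPM). Of 16 flanking genes in the matrix, 9 had 10 CPM or more and 0 of 9 had a range over 4-fold.

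Genes that act above or beside the Hox code were counted in the same way. Of 15 upstream genes, mostly Cdx and retinoid genes, 7 had 10 CPM or more and 3 of 8 had a range over 4-fold. Aldh1a2, which makes retinoic acid, had 68.1 CPM in CD34+CD81+ fibroblast-like and 3.75 CPM in Saa3 Prdm1 cells. Its relative Aldh1a3 had 255.8 CPM in Cxcl14 Ddit4 and 27.7 CPM in myofibroblast or smooth muscle-like cells, and the retinoic acid receptor Rarb ranged from 13.2 to 2.64 CPM. The Cdx genes, which turn on posterior Hox genes in the embryo and in gut epithelium, were low, with Cdx1 at 28 UMIs, Cdx2 at 10 and Cdx4 at 0 in stromal cells. Of 25 other positional factors of gut mesenchyme 11 had 10 CPM or more, led by Tcf21 (1328 CPM) and Nkx2-3 (344.6 CPM), and 9 of 12 had a range over 4-fold. Isl1 had 86.4 CPM in Saa3 Prdm1 and 5.06 in Cxcl14 Ddit4 cells, while Tbx3 had 112.5 CPM in Cxcl14 Ddit4 and 3.92 in CD34+CD81+ fibroblast-like cells. Pitx1, a factor of hindlimb identity, had 399.9 CPM in myofibroblast or smooth muscle-like and 81.6 in CD34+CD81+ fibroblast-like cells.

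In open chromatin the Hox clusters were dense in peaks in all 4 populations. The MRISC list had 146 peaks in the clusters of 177054 in all, the CD34 SP list 106 of 143411, the CD138 list 125 of 216805 and the Myofibroblast list 110 of 179351. That is, in this order, 29.7, 21.6, 25.4 and 22.4 peaks per 100 kb, against 6.496, 5.26, 7.95 and 6.58 over the genome. Peaks covered 11.9, 10.5, 6.68 and 5.67% of the clusters, against 2.43, 2.48, 1.95 and 1.55% of the genome. Of these peaks 41, 22, 44 and 43 stood in the authors' lists of population-specific peaks. These are 28.1, 20.8, 35.2 and 39.1%, against 46.6, 34.6, 58.4 and 62.9% of the whole lists. The lists are given per population, so there is no spread between the 2 libraries to set a difference against, and read depth is not given.

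HoxA was the most open cluster, and the most alike between populations. Peaks of MRISC covered 21.5% of it, those of CD34 SP 32.5%, those of CD138 15.8% and those of Myofibroblast 12.3%. In each population 10 of its 11 promoters had a peak within 1 kb of a transcript start (65.1 to 68.3% of all protein-coding genes), Hoxa2 having none in any. The promoter peaks of Hoxa10, Hoxa11 and Hoxa13 lay at the 92nd, 88th and 91st percentile of the peak score in CD34 SP and at the 96th, 95th and 90th in CD138. Myofibroblast had Hoxa10 at the 71st percentile and Hoxa13 at the 93rd. HoxC was covered to 5.72, 3.96, 2.26 and 3.34% in the same order of populations, with 21, 20, 15 and 19 peaks, and HoxD to 14.1, 11.1, 8.01 and 6.30%, with 35, 22, 31 and 27 peaks. Covered bases of HoxA shared by MRISC and CD34 SP were 52.0% of those covered in either (Jaccard index), against 48.6% over the genome.

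Of all 39 Hox promoters, 31 had a peak in the MRISC list (67.4% of 21853 protein-coding genes), 21 in the CD34 SP list (65.1%), 25 in the CD138 list (68.3%) and 27 in the Myofibroblast list (65.1%). A peak in all 4 populations was found at 16 (57.7% of all genes) and in none at 3 (23.2%), Hoxa2, Hoxc6 and Hoxc12. So 20 of the 39 promoters differed between lists, a larger share than the 57.7% and 23.2% leave over all genes. Hoxb2, Hoxb6 and Hoxd12 had a peak only in MRISC (1.78% of all genes), Hoxb1 and Hoxb13 only in CD138 (3.49%), and Hoxb8, Hoxc8 and Hoxd4 only in Myofibroblast (2.48%). 0 had one only in CD34 SP (0.773%). The peaks behind these calls were weak at Hoxb1 (9.88th percentile of the list's scores), Hoxb8 (25.4th), Hoxc8 (34.3rd) and Hoxd4 (39.2nd), all under the median score, and stronger at Hoxd12 (63.6th), Hoxb13 (75.1st), Hoxb2 (79.4th) and Hoxb6 (79.8th). There were 10 promoters with a peak in MRISC and not in CD34 SP (4.36% of all genes), 7 of them in HoxB, and 0 with the reverse (2.13%). These differences depend on the window. Within 2 kb of a start 33, 30, 30 and 33 of the 39 had a peak in MRISC, CD34 SP, CD138 and Myofibroblast. Within 0.5 kb 28, 20, 24 and 25 had one. Promoters that differed between lists, and shares over all genes, were counted at 1 kb only.

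The remaining differing promoters were in HoxB, HoxC and HoxD. Hoxb4, Hoxb5 and Hoxb9 had a peak in every list but that of CD34 SP. Hoxc5, Hoxc9, Hoxd1 and Hoxd11 had one in every list but that of CD138, and Hoxc13 in every list but that of Myofibroblast. Hoxb7, Hoxc4 and Hoxc11 had one in MRISC and CD138, and Hoxb3 in MRISC and Myofibroblast. At Hoxd11, the most abundant HoxD gene of these cells, the peaks were at the 83rd, 76th and 88th percentile of the score in MRISC, CD34 SP and Myofibroblast. Hoxd13 had a promoter peak in all 4 populations, at the 86th, 80th, 85th and 88th percentile. Hoxd9 had one at the 87th, 69th and 76th percentile in MRISC, CD34 SP and CD138, and at the 20th in Myofibroblast.

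**Figure D4:**
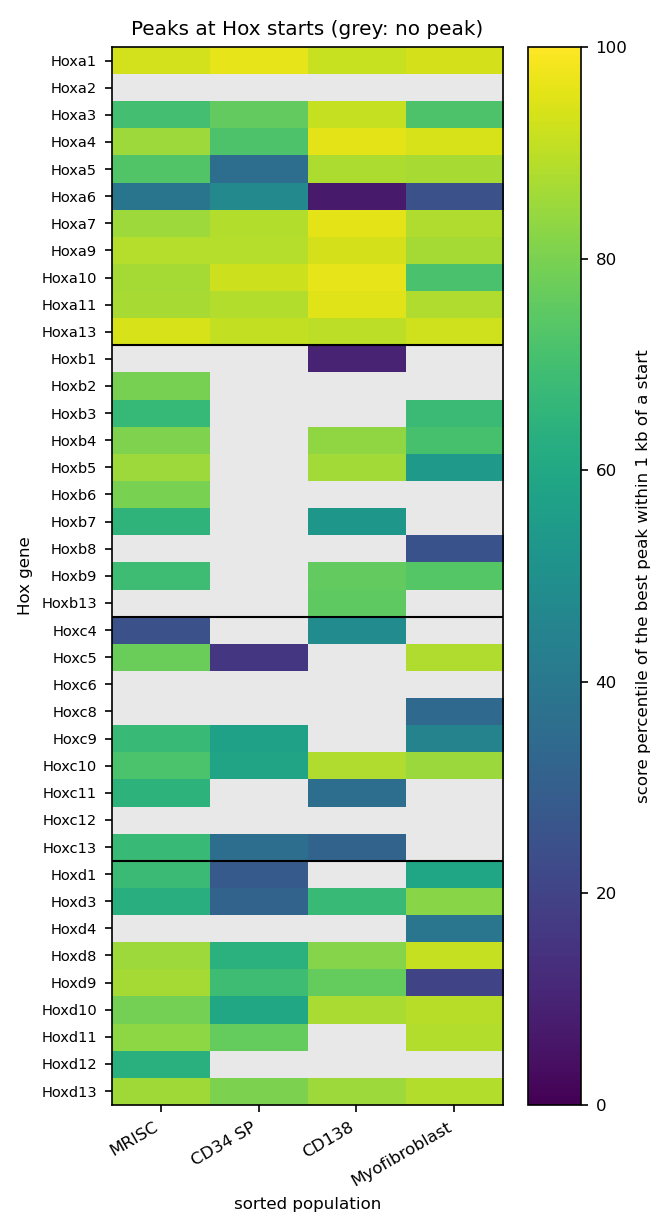
Percentile of the best-scored peak within 1 kb of a transcript start, within each population's own list, for the 39 Hox genes (rows) in 4 sorted populations (columns), with grey for no peak. HoxA rows are filled in all columns except Hoxa2, and the HoxB rows of CD34 SP are grey.

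HoxB differed most in peak number between populations. MRISC had 41 peaks over it, CD138 30, Myofibroblast 24 and CD34 SP 10, and they covered 8.92, 3.36, 2.86 and 1.32% of it. Of the MRISC peaks 22 (53.7%, 37.4 to 69.3) were in its specific list, an interval that includes the 46.6% of its whole list. In CD138 and Myofibroblast 53.3% and 58.3% of the HoxB peaks were specific, against 58.4% and 62.9% of their whole lists. So the specific shares of all 3 populations lay near those of their whole lists. Promoters with a peak within 1 kb were 7 of 10 in MRISC (67.4% of all protein-coding genes), 6 in CD138 (68.3%), 5 in Myofibroblast (65.1%) and 0 in CD34 SP (65.1%). So only the count of CD34 SP lay far from its share over all genes. With a window of 2 kb CD34 SP had 7, because several of its HoxB peaks lay just outside, for example 1127 bases from the Hoxb4 start and 1690 bases from that of Hoxb8. The share over all genes was not counted for that window. The Jaccard index of MRISC with CD34 SP was 13.2% in HoxB, against 34.4% in HoxC and 49.4% in HoxD. In HoxB peaks of CD34 SP covered 2298 bases and those of MRISC 15521. The index there had to be low wherever the peaks lay, so it does not show that the 2 lists open different sites. How the single-cell clusters map to the sorted populations was not tested.

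Sequences of 2 HoxB stretches show where the lists differed, each 5′ to 3′ on the plus strand of mm10 with every CpG in capitals. They are the Hoxb4 promoter, where a weak peak of 68 bases lay on these bases only in CD138 (at the 7.84th percentile of its list), and the central 200 bases of the MRISC-specific peak with the highest score in HoxB, in an intron of Hoxb3.
Hoxb4 promoter, chr11:96318017-96318316: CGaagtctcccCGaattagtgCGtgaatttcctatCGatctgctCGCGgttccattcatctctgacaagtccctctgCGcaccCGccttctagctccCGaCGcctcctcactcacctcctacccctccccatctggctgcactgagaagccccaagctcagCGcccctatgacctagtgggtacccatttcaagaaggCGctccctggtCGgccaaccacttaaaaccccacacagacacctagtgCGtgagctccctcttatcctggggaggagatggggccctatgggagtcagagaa
Hoxb3 intron, chr11:96332633-96332832: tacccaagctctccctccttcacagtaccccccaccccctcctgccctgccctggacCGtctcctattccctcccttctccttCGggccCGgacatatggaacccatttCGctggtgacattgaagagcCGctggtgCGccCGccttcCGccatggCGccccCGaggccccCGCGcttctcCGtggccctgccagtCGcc
They held 14 CpG each. Stronger peaks lay further into Hoxb4, the nearest 180 bases after its start in MRISC (77.5th percentile) and 377 bases after it in Myofibroblast (70.9th). CD138 had 4 peaks in all within 1 kb of that start, the best at the 83.3rd percentile of its list. The whole Hoxb3 peak was 954 bases long (chr11:96332256-96333209) and lay at the 82nd percentile of the MRISC list. The MRISC-specific peaks at the Hoxb2 and Hoxb6 starts were at the 79th and 80th percentile. So the strongest MRISC-specific sites of HoxB lay at Hoxb2, Hoxb3 and Hoxb6. In the single-cell library these genes had 4.74, 1.59 and 1.70 CPM over all stromal cells. They had 28.9, 9.31 and 8.82 CPM in CD34+CD81+ fibroblast-like cells, their highest large cluster. That library came from a DSS-treated female and the ATAC-seq cells from males with no treatment given. MRISC were not matched to a cell cluster, so the peaks and these levels are not of the same cells.

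**Figure D5:**
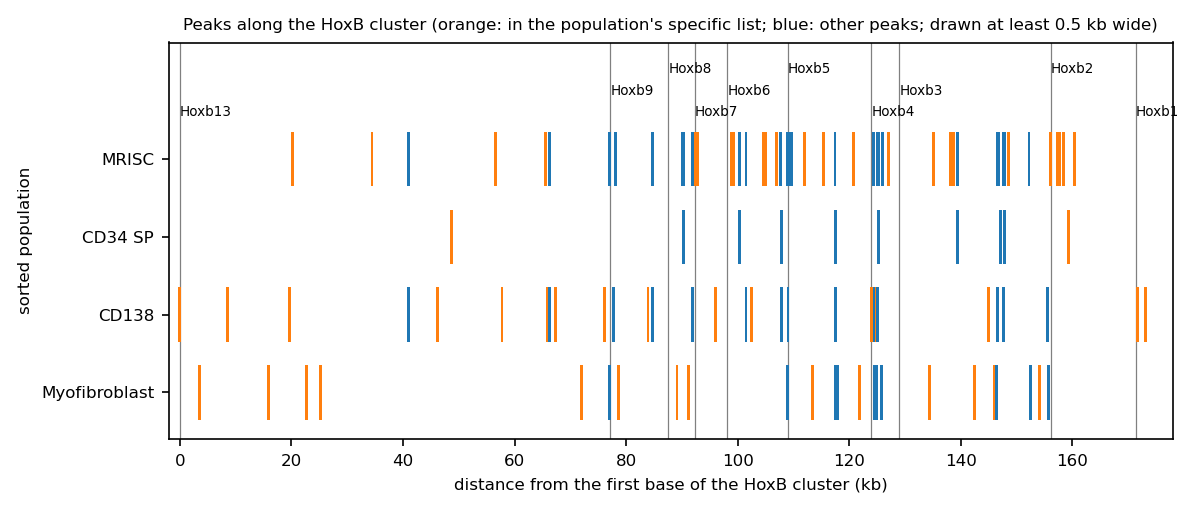
Peaks along HoxB in 4 sorted populations, by distance in kb from the first base of the cluster, with gene positions above. Orange bars are in the authors' list of peaks specific to that population and blue bars are not. Bars are drawn at least 0.5 kb wide. MRISC has 41 bars, 22 of them orange, and CD34 SP has 10.

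Short DNA words were searched on both strands in the promoters of the 22 genes, as a description of these letters only. The word of PBX with HOX (TGATTNAT) was in 2 of 22 (9.09%, Hoxa2 and Hoxd11), against 3.74% of promoters of all 27025 genes. The word of posterior HOX and CDX factors (TTTATNG) was in 2 (Hoxb8 and Hoxd4), against 12.5%, and the homeodomain word TAATTA in 1 (Hoxd11), against 6.12%. The MEIS word TGACAG was in 2 (Hoxa2 and Hoxa3), against 21.6%, and the AP-1 word TGANTCA in 1 (Hoxd11), against 8.97%. The SP and KLF word GGGCGGGG was in 3 (Hoxa9, Hoxc4 and Hoxd1), against 19.6%. The CTCF consensus was in 0, against 2.82%, and the direct repeat of retinoic acid receptors in 0, against 0.0111%. In the central 200 bases of the Hox peaks, the MEIS word was in 7.53% of MRISC peaks (15.5% of its whole list), 10.4% of CD34 SP peaks (15.4%), 8.80% of CD138 peaks (15.1%) and 7.27% of Myofibroblast peaks (14.9%). TTTATNG was in 10.96, 12.3, 12.8 and 12.7% in the same order, against 7.92, 8.46, 9.17 and 8.93% of the whole lists.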

How the data were processed

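ATAC-seq was deposited as 1 list of all peaks and 1 list of specific peaks per population, with 1 score per peak. The submitters' processing notes name bcl2fastq, bedtools and mm10 as what the authors used. No source used here names the peak caller, defines the score or says how the 2 libraries were joined. Scores therefore ranked peaks within a list only. The single-cell sample was deposited as UMI counts, which the authors made on mm10 with bcl2fastq, Cell Ranger and Seurat, per the submitters' processing notes, from a 10x 3′ version 2 library per the labels' protocols. The file header gives software version 3.0.0.

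Of 11484 filtered barcodes, 11376 passed the limits of 500 or more genes and 10% or less mitochondrial UMIs (72920197 UMIs). Counts were scaled to 10000 per cell and logged, and 2000 variable genes, 30 components, 15 neighbours and Leiden resolution 0.5 were used (scanpy 1.11.5, leidenalg 0.10.2). A cluster was named by at least 3 of its markers. No doublet caller was run, and doublets remain. UMIs were pooled per cluster as CPM with exact Poisson intervals, and shares of cells or UMIs carry Clopper-Pearson intervals, both at 95%. A lowest value under 3 counts was set to 3 counts where a ratio needed a floor. Free RNA was the median ratio of 8 immune and epithelial genes between stromal cells and 546978 empty droplets of at most 100 UMIs. Peaks on 21 chromosomes were joined to GENCODE vM21 starts, with an overlap of 1 bp, and overlaps were checked against bedtools 2.31.1. Scripts were tested on simulated data.

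The 39 genes, the lists and the markers were chosen with earlier results of these data known. Named were the 12 Hox genes with the highest stromal CPM, group 13, Hox genes whose promoter peak differed between populations, and list genes at 50 CPM or more or with a range over 4-fold. Others named in the text, such as Hotairm1 and the low Cdx genes, were chosen after their values were seen. No p-value was computed, since neither assay gives values per replicate. Alternatives covered cell filters, clustering, thinning, peak scores and windows. Bulk RNA was not used here. A gene of the lists and a stretch of HoxB are not reported here.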

Additional observations from a re-analysis of the deposited data

How the results depend on the processing

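Neither assay gives values per replicate, so the spread between animals is unknown, leaving out a replicate was not possible, and depth limits the low Hox genes. No paired analysis was possible because each ATAC-seq list is of a population and the single-cell sample is 1 library. Of 227 recomputed values 174 were labelled as the same, 53 as moved and 0 as reversed. The peak lists have no spread, so there a value was the same within a fixed fold of the main one. For peaks and DNA words the labels had no class for a reversal. Within clusters some co-detection ratios crossed 1. HoxB without Hoxb13 went from 0.655 to 1.06 with group 13 and from 1.69 to 0.990 with HoxC. Equal weight for each stromal cluster gave shares of 3.95% anterior, 21.3% central, 74.7% posterior, 55.7% HoxA, 8.99% HoxB, 9.33% HoxC and 25.9% HoxD, and subtracting empty-droplet RNA gave 5.11% HoxB. The highest over the lowest cluster became, at resolution 0.3, 1.502 for all Hox, 1.76 for posterior genes, 27.1 for HoxB without Hoxb13, 30.6 for HoxC, 4.32 for group 13 and 11.7 for Hoxd8 with Hoxd9. With another seed it was 1.63, 1.85, 38.7 for HoxC, 3.93 for group 13 and 11.9 for Hoxd8 with Hoxd9, and with thinned UMIs per cell 119.4 for HoxC and 17.3 for group 13. The lowest HoxC, HoxB and group 13 clusters are near free RNA, so these ratios depend on that background. At resolution 0.3 and with the other seed no separate Cxcl14 Ddit4 cluster formed.

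Co-detection within clusters, after thinning and then as deposited (the latter chosen after seeing the data), gave 0.568 and 0.737 for group 13 with HoxC, 0.563 and 0.859 for group 13 with Hoxd8 and Hoxd9, and 1.57 and 1.57 for HoxC with Hoxd8 and Hoxd9. It gave 0.990 and 1.07 for HoxB with HoxC, 1.14 and 1.19 for HoxB with Hoxd8 and Hoxd9, and 1.29 and 1.35 for Hoxd10 and Hoxd11 with HoxC. Hoxd9 with Hoxd13 as deposited gave 0.868. Peaks above the median score numbered 94 (MRISC), 55 (CD34 SP), 77 (CD138 list) and 66 (Myofibroblast), and specific peaks called again among them 26, 6, 18 and 18. With equal list sizes CD138 had 27 specific peaks. In HoxB the specific peaks above the median score were 13, 0, 5 and 5 in the same order, and the cause of these moves was not tested.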

Other observations

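The epithelium-like cells, 24 in number and outside the stromal comparison, had a Hox pattern of their own. Their Hox genes summed to 420.1 CPM (369.7 to 475.6), and all 24 had a Hox UMI at a median depth of 20290 UMIs. Hoxb13, a posterior gene of gut and prostate epithelium, was their most abundant Hox gene, with 80 UMIs or 134.4 CPM (106.6 to 167.3), while all 11069 stromal cells together had 12 UMIs (0.170 CPM). Hoxa7 had 50.4 CPM, Hoxa9 48.7 CPM, Hoxa10 and Hoxa5 30.2 CPM each and Hoxb9 25.2 CPM. Epcam, which marks epithelium and which the sort for ATAC-seq removed, had 1474 CPM in these cells. In the ATAC-seq lists the Hoxb13 promoter had a peak only in CD138, at the 75th percentile of that list.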
